A study of Homo sapiens with 6 samples.

Results

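The genes described here encode the enzymes of glycolysis, the conversion of glucose to pyruvate and lactate, with every isozyme of each step. They were taken by name from a list of 35 genes, of which 33 had a row among the 30676 genes in the deposited table. Of these, 26 had a mean of at least 0.5 FPKM (fragments per kilobase of transcript, scaled to library size) over the 6 libraries and were tested. The list holds the isozymes of the 10 steps from hexokinase to pyruvate kinase, lactate dehydrogenase, the enzymes that set or bypass phosphofructokinase activity, and PGAM5 and LDHD, which are named as relatives of glycolytic enzymes. LDHC and PGK2 had no row, and their levels were not analysed here.

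RNA was sequenced from libraries labelled HCT116, a human colorectal cancer line, with genotype WT. In the GIA group, 3 libraries came from cells given GIA, a genistein isoflavonoid alkaloid, at 10 µM. In the DMSO group, 3 libraries came from cells given the vehicle DMSO at 0.1%. Both groups were kept at 1% oxygen for 24 hours, and no library at normal oxygen was analysed here, so the comparison asks how GIA and DMSO differ under low oxygen. The labels do not say that libraries are separate cultures. A p-value here therefore reflects only how far these libraries spread, and that spread may be technical.

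Glycolysis yields ATP without oxygen, and lactate dehydrogenase regenerates the NAD+ that it consumes. Under low oxygen the hypoxia-inducible factors bind short motifs near many glycolytic genes and raise their transcription, often of 1 isozyme of a step more than of the others. Isozymes catalyse the same reaction with different kinetics and regulation, so the share that each contributes is a property of a cell type.

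Library totals were between 64804849 and 67835059 estimated counts with GIA and between 55725249 and 63542466 with DMSO. Of 9 markers of colorectal epithelium, 4 were expressed: KRT8 at 144 FPKM with GIA and 148 with DMSO, KRT18 at 249 with GIA and 262 with DMSO, KRT19 at 27.2 with GIA and 28.1 with DMSO, and ELF3 at 15.8 with GIA and 15.2 with DMSO. The other 5 were near 0: EPCAM had 0.249 FPKM with GIA and 0.255 with DMSO, CDH1 had 0.0303 with GIA and 0.0422 with DMSO, and CDH17, VIL1 and LGALS4 were at 0.0250 or less in both groups. Of 6 fibroblast markers, LUM had 177 FPKM with GIA and 168 with DMSO, DCN 13.5 with GIA and 12.2 with DMSO, PDGFRB 4.46 with GIA and 3.98 with DMSO, and COL1A1 2.72 with GIA and 2.32 with DMSO; COL3A1 was near 0, and COL1A2 had no row and was not analysed here. The epithelial list was thus split, with its keratins and ELF3 expressed and its other members near 0. The epithelial markers near 0 and the expressed fibroblast markers go against the label of a colorectal line, while the keratins and ELF3 go with it. The identity of the cells was not tested, and the libraries are called by their labels. The summed endothelial markers, and the summed leukocyte (3 of 5 with a row), striated muscle (2 of 5) and liver (1 of 4) markers, were each at 0.27 FPKM or less in each library, and the red cell markers (3 of 4 with a row) summed to 1.02 to 1.91 FPKM with GIA and 1.15 to 2.00 with DMSO. The 5 sperm markers had no row and were not analysed here. In bulk RNA, fewer cells of a type and less RNA per cell cannot be told apart.

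Most glycolytic steps were carried by 1 abundant gene. GAPDH was the highest at 1287 ± 72.8 FPKM with GIA and 1229 ± 38.0 with DMSO (SD, n = 3 each, as throughout), and ranked 17 among the 30676 genes. In all, 9 genes had a mean of at least 100 FPKM, 5 lay between 20 and 100, 10 between 2 and 20, and 2 between 0.5 and 2. The other 7 with a row lay below 0.5 and were not tested. Together the 33 genes made up 1.45%, 1.55% and 1.45% of summed FPKM in GIA libraries 1 to 3, against 1.47%, 1.42% and 1.46% in DMSO libraries 1 to 3. GIA library 2 was the highest and DMSO library 2 the lowest, and the groups overlapped.

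**Figure D1:**
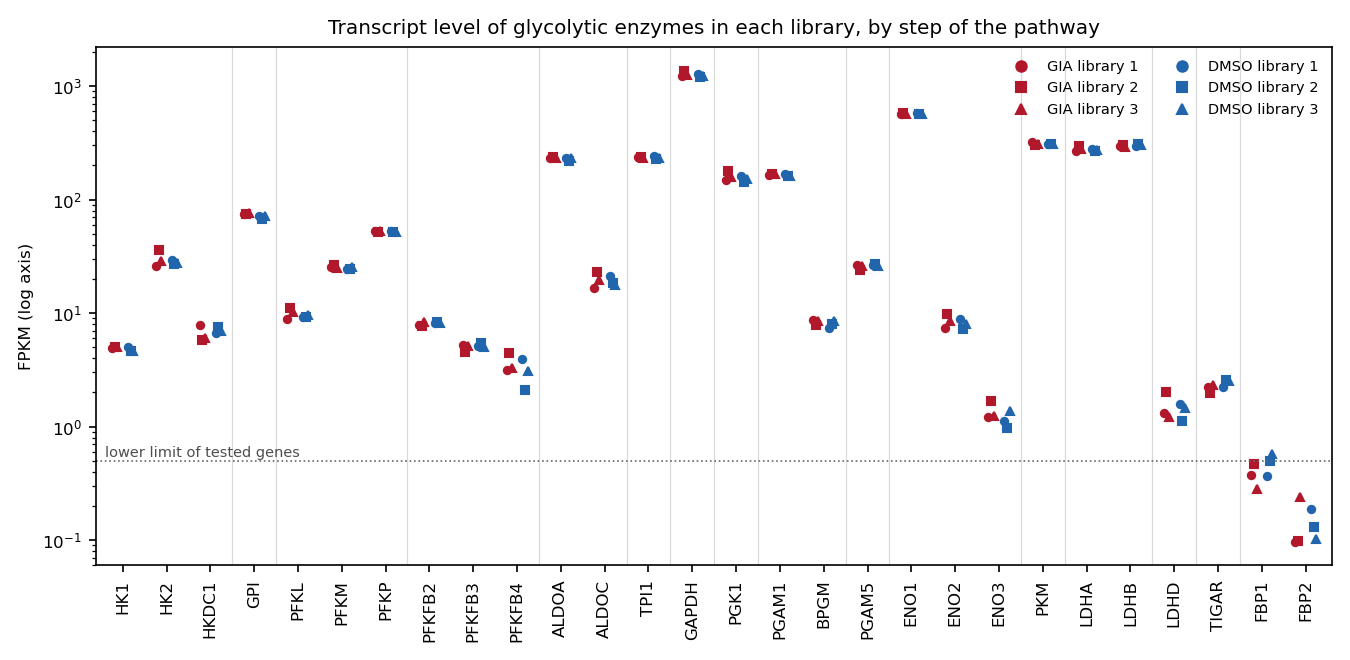
FPKM on a log axis of the 26 tested genes and of FBP1 and FBP2, by library, with GIA in red left of DMSO in blue and the genes in pathway order. Levels run from about 1287 FPKM for GAPDH to under 0.5 FPKM for FBP2, and most genes show a narrow spread over the 6 libraries, wider for PFKFB4, ENO3 and LDHD.

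No glycolytic enzyme differed between GIA and DMSO past the test. By edgeR's quasi-likelihood test with Benjamini-Hochberg adjustment over 13721 genes, 0 of the 26 tested genes had an adjusted p under 0.05, against 0.0% of all genes. The smallest adjusted p was 0.875. At an unadjusted p under 0.05, 1 of 26 (GPI) was called, which is 3.85% against 4.59% of all genes. Without GIA library 1 these were 6 of 26 (HK2, HKDC1, PFKL, GAPDH, PGK1 and LDHA; 23.1%, against 10.3% of all genes), none with an adjusted p under 0.05. The unadjusted count was 0 of 26 with limma (against 4.85% to 4.91% of all genes), with a replicate block (3.37%) and without the FPKM filter (3.52%). It was also 0 without GIA library 3 (3.85%), DMSO library 2 (2.96%) or DMSO library 3 (3.74%). Without DMSO library 1 it was 2 of 26 (7.69%, against 3.49%). Other scalings, DESeq2 and leaving out GIA library 2 gave 1 of 26 (3.85%, against 4.21% to 4.74%). At an adjusted p under 0.05, DESeq2 and limma on log2 FPKM each called 0 of the 26. Fold changes are given below as log2, GIA over DMSO, with the standard error (SE). They ranged from −0.15 to 0.25 over the 26 genes, with a median of 0.04, against 0.000384 for all tested genes. The 95% interval of the fold change lay within 1.2-fold either way for 17 of the 26 genes (65.4%, against 55.9% of all genes), within 1.5-fold for 23 (88.5%, against 83.0%) and within 2-fold for all 26 (against 92.9%). For the 14 genes of at least 20 FPKM the intervals together spanned 0.893-fold to 1.25-fold.

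**Figure D2:**
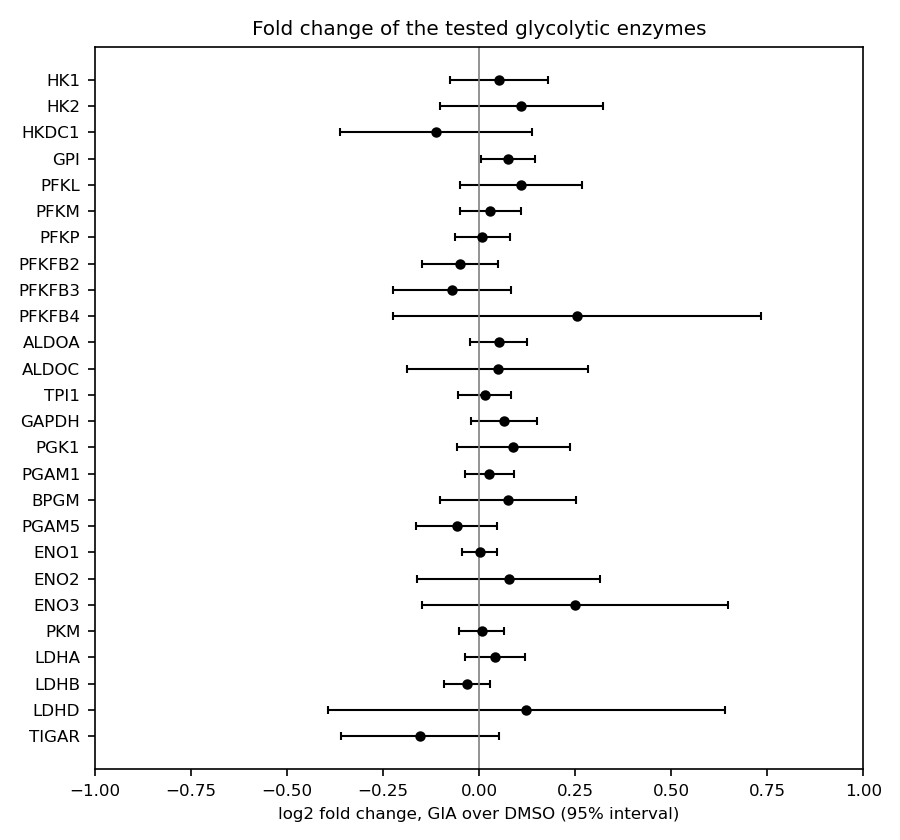
Log2 fold change, GIA over DMSO, of the 26 tested genes in pathway order, with 95% intervals from edgeR's quasi-likelihood fit. The points lie between −0.15 and 0.25; the interval of GPI alone leaves out 0, and PFKFB4, ENO3 and LDHD have the widest intervals.

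Hexokinase, which traps glucose in the cell as glucose 6-phosphate, was expressed mainly as HK2. HK2 (chr2:74834127-74893359, GRCh38), the inducible isozyme bound to mitochondria, had 26.2, 35.8 and 28.9 FPKM in GIA libraries 1 to 3, against 29.4, 27.0 and 27.7 in DMSO libraries 1 to 3. GIA library 2 was the highest and GIA library 1 the lowest, so the DMSO libraries lay inside the GIA range. The fold change was 0.11 (SE 0.09; interval 0.931-fold to 1.25-fold; edgeR adjusted p = 0.878). HKDC1 (chr10:69220332-69267552), a hexokinase domain protein next to HK1 on the chromosome, had 7.78, 5.84 and 5.99 FPKM with GIA, against 6.66, 7.52 and 6.999 with DMSO. Its groups overlapped, with GIA library 1 the highest and GIA library 2 the lowest, the reverse of HK2 (fold change −0.11, SE 0.11; edgeR adjusted p = 0.888). HK1 (chr10:69269984-69401884), the constitutive isozyme, had 4.89, 4.99 and 5.00 FPKM with GIA, against 5.05, 4.62 and 4.67 with DMSO (fold change 0.05, SE 0.06; edgeR adjusted p = 0.899). HK3, the myeloid isozyme, was listed at 0 in all libraries but DMSO library 1, which had 5 estimated counts.

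As a share of hexokinase FPKM, HK2 made up 67.4%, 76.8% and 72.4% in GIA libraries 1 to 3, against 71.5%, 69.0% and 70.3% in DMSO libraries 1 to 3. HKDC1 made up 20.003%, 12.5% and 15.0% with GIA, against 16.2%, 19.2% and 17.8% with DMSO. HK1 took 11.9% ± 1.06 with GIA and 11.99% ± 0.263 with DMSO. The HK2 share differed by 1.94 percentage points and the HKDC1 share by −1.87, GIA minus DMSO, in both cases within the spread of the GIA libraries (exact permutation test, two-sided, p = 0.6 for HK2 and 0.5 for HKDC1). With 3 libraries against 3 the smallest p this test can give is 0.1. It was run on 13 shares, and each adjusted p was at least 0.827.

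The 250 bases before the first RefSeq start of HK2 and HKDC1 are shown (GRCh38.p14), since the highest and lowest libraries of these genes were exchanged, and capitals mark the hypoxia motif ACGTG or GCGTG on either strand, so CACGT and CACGC are the same motif read on the other strand and CACGTG counts 2 matches. The promoters shown here and for later steps were picked after the values were seen.
HK2 promoter, chr2:74833877-74834126, plus strand: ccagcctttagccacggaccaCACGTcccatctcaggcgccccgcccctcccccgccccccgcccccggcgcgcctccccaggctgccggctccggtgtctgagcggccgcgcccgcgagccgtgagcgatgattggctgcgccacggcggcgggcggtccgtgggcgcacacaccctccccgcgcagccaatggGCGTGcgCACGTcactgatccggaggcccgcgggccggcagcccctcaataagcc
HKDC1 promoter, chr10:69220082-69220331, plus strand: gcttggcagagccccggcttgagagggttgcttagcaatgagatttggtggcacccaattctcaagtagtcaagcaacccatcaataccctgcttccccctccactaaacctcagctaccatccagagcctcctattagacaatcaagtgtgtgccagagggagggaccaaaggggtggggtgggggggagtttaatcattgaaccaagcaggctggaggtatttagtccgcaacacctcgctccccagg
The HK2 window holds 3 matches and the HKDC1 window 0. The other HK2 window, not shown, holds 6. Over all RefSeq windows of this length, 43.2% of 35116 hold at least 1 match, against 54.4% of the 57 windows of the listed glycolytic genes. Those windows include LDHC and PGK2. Some genes have several windows, 7 each for HK1 and PFKM, and some of these overlap. A gene with more windows has more places for a match in the counts per gene that follow. Of the glycolytic genes highest in GIA library 2, 12 of the 13 with a window hold a match in at least 1 window. Of those lowest in that library 3 of 5 do, against 20 of all 24 tested glycolytic genes with a window (83.3%). Counted per gene in the same way, 65.8% of the 9448 tested genes of any kind with a window hold a match. PGAM1, highest in GIA library 2, holds 0, while PGAM5, TIGAR and PFKFB3, lowest in that library, hold matches. A relation between matches and library levels was not tested. A match is a description of the letters only, and no binding was measured.

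Phosphoglucose isomerase, GPI (chr19:34359480-34402413), had 73.8, 74.3 and 75.4 FPKM with GIA, against 72.3, 67.9 and 71.8 with DMSO. All GIA libraries lay above all DMSO libraries. The fold change was 0.07 (SE 0.03; interval 1.00-fold to 1.11-fold; unadjusted p = 0.0401, edgeR adjusted p = 0.875). GPI and ALDOA were the 2 of 26 genes with every GIA library above every DMSO library (7.69%, against 5.63% of all genes), and 0 had every GIA library below (against 5.6%). In either direction, 2 of 26 did not overlap, against 11.2% of all genes.

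Phosphofructokinase, the committed step of glycolysis, was a mixture of its 3 isozymes, with the platelet type ahead of the muscle and liver types. PFKP (chr10:3066333-3137715) had 53.3, 51.9 and 52.3 FPKM with GIA, against 53.3, 51.5 and 51.6 with DMSO. Its highest library was 1.04 times its lowest and its fold change was 0.01 (SE 0.03; edgeR adjusted p = 0.973). PFKM (chr12:48105139-48146404) had 25.2, 26.3 and 24.8 FPKM with GIA, against 24.6, 24.5 and 25.5 with DMSO (fold change 0.03, SE 0.04; edgeR adjusted p = 0.904). PFKL (chr21:44300051-44327376) had 8.90, 11.1 and 10.2 FPKM with GIA, against 9.20, 9.14 and 9.68 with DMSO. PFKL varied most of these isozymes, with GIA library 2 the highest and GIA library 1 the lowest (fold change 0.11, SE 0.07; edgeR adjusted p = 0.875). PFKP made up 59.7% ± 1.47 of the step with GIA and 60.4% ± 0.892 with DMSO, PFKM 28.9% ± 0.542 with GIA and 28.8% ± 0.587 with DMSO, and PFKL 11.5% ± 1.17 with GIA and 10.8% ± 0.307 with DMSO. The order of the isozymes was the same in each library, and no share differed beyond the spread (exact permutation p = 0.6 for PFKP, 0.7 for PFKM and 0.5 for PFKL).

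The bifunctional PFKFB enzymes make and break the allosteric activator of phosphofructokinase. PFKFB2 (chr1:207034366-207081024) had 7.91, 7.62 and 8.37 FPKM with GIA, against 8.23, 8.28 and 8.20 with DMSO (fold change −0.05, SE 0.04; edgeR adjusted p = 0.878). PFKFB3 (chr10:6144934-6254644), the isozyme with the highest kinase activity, had 5.20, 4.58 and 5.12 FPKM with GIA, against 5.16, 5.43 and 5.02 with DMSO (fold change −0.07, SE 0.07; edgeR adjusted p = 0.886). PFKFB4 (chr3:48517684-48561972), known as a hypoxia-responsive isozyme, had 3.13, 4.48 and 3.27 FPKM with GIA, against 3.904, 2.09 and 3.10 with DMSO. Its highest library, GIA library 2, was 2.15 times its lowest, DMSO library 2, the widest ratio among the tested glycolytic genes. The groups overlapped, and the fold change was 0.25 (SE 0.21; interval 0.857-fold to 1.66-fold; edgeR adjusted p = 0.878). Its share of the PFKFB total was 19.3%, 26.9% and 19.4% with GIA, against 22.5%, 13.2% and 19.0% with DMSO, a difference of 3.64 points (exact permutation p = 0.4). PFKFB1, known from liver and muscle, had at most 11 estimated counts in a library.

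The enzymes that work against phosphofructokinase were low. TIGAR (chr12:4307763-4360028), a phosphatase that lowers the same activator, had 2.24, 1.96 and 2.34 FPKM with GIA, against 2.21, 2.56 and 2.501 with DMSO. It had the lowest fold change of the 26 genes, −0.15 (SE 0.09; unadjusted p = 0.126, edgeR adjusted p = 0.875), and the groups overlapped. FBP1, a fructose bisphosphatase of gluconeogenesis, lay at 0.375, 0.466 and 0.281 FPKM with GIA, against 0.368, 0.502 and 0.576 with DMSO. FBP2, the muscle form, had 10, 10 and 23 estimated counts with GIA, against 16, 11 and 10 with DMSO. Neither FBP1 nor FBP2 reached the level at which genes were tested. The FBP1 share of their sum was tested and was 72.1% ± 15.7 with GIA and 76.9% ± 9.51 with DMSO, the largest difference of the 13 shares at −4.82 points, within the spread (exact permutation p = 0.7).

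Aldolase splits the 6-carbon sugar, and its main form here was ALDOA (chr16:30064164-30070414), with 235, 239 and 234 FPKM with GIA, against 233, 217 and 232 with DMSO. All GIA libraries lay above all DMSO libraries, by a small margin (fold change 0.05, SE 0.03; interval 0.984-fold to 1.09-fold; edgeR adjusted p = 0.875). ALDOC (chr17:28573115-28576948), the brain form, had 16.7, 22.8 and 19.6 FPKM with GIA, against 21.0, 18.2 and 17.7 with DMSO. As for HK2, GIA library 2 was its highest and GIA library 1 its lowest (fold change 0.05, SE 0.10; edgeR adjusted p = 0.948). ALDOA made up 92.3% ± 1.03 of the step with GIA and 92.3% ± 0.585 with DMSO (exact permutation p = 0.9). A gene model on the same strand, AC093512, overlaps ALDOA and had 23.5, 26.8 and 29.3 FPKM with GIA, against 23.8, 40.1 and 20.8 with DMSO. It was highest in DMSO library 2, where ALDOA was lowest; how reads were divided between the models is an estimate in these counts. The ALDOC window is shown because ALDOC varied more across libraries than ALDOA. It holds 5 motif matches, and the 3 windows of ALDOA, not shown, hold 1, 2 and 1.
ALDOC promoter, chr17:28576896-28577145, minus strand: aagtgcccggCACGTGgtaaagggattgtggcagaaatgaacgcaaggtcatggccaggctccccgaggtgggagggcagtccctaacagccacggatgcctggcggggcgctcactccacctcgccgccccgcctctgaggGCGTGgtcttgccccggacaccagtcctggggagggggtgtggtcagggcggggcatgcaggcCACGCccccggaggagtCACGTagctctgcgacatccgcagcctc

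The next steps have 1 main enzyme each, at high and even levels. TPI1 (chr12:6867119-6870948), which interconverts the triose phosphates, had 239, 239 and 234 FPKM with GIA, against 243, 229 and 232 with DMSO (fold change 0.01, SE 0.03; edgeR adjusted p = 0.948). GAPDH (chr12:6534512-6538371), the NAD+-dependent dehydrogenase of glycolysis, had 1236, 1370 and 1254 FPKM with GIA, against 1267, 1191 and 1229 with DMSO. GIA library 2 was its highest and DMSO library 2 its lowest, a ratio of 1.15 (fold change 0.06, SE 0.04; edgeR adjusted p = 0.875). GAPDHS, the form of sperm, had 5, 0 and 5 estimated counts with GIA, against 6, 7 and 17 with DMSO, too few to test.

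PGK1 (chrX:77910739-78129295), which makes the first ATP of the pathway, had 148, 179 and 157 FPKM with GIA, against 161, 142 and 151 with DMSO. GIA library 2 was again the highest and DMSO library 2 the lowest, and the groups overlapped (fold change 0.09, SE 0.07; interval 0.960-fold to 1.18-fold; edgeR adjusted p = 0.875). At a ratio of 1.26 it varied most among the 9 genes of at least 100 FPKM. The promoter of PGK1 is a textbook hypoxia-responsive promoter, and its window holds 3 motif matches in its distal part.
PGK1 promoter, chrX:78103998-78104247, plus strand: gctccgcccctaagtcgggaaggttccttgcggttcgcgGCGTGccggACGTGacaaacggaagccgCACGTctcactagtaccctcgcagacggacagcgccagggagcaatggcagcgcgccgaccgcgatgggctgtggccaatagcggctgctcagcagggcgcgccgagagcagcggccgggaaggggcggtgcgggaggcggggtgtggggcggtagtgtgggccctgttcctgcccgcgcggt

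PGAM1 (chr10:97426191-97433444), the phosphoglycerate mutase of most tissues, had 165, 169 and 168 FPKM with GIA, against 167, 161 and 163 with DMSO (fold change 0.03, SE 0.03; edgeR adjusted p = 0.893). BPGM (chr7:134646811-134679813), the bisphosphoglycerate mutase known from red cells, had 8.69, 7.92 and 8.44 FPKM with GIA, against 7.33, 7.96 and 8.48 with DMSO (fold change 0.07, SE 0.08; edgeR adjusted p = 0.893). PGAM1 made up 95.2% ± 0.266 of their sum with GIA and 95.4% ± 0.375 with DMSO (exact permutation p = 0.6). PGAM2, the muscle form, had at most 1 estimated count. PGAM5 (chr12:132710819-132722734), a mitochondrial protein phosphatase that shares the family name, had 26.5, 24.1 and 26.02 FPKM with GIA, against 26.5, 27.0 and 26.2 with DMSO (fold change −0.06, SE 0.05; edgeR adjusted p = 0.877).

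Enolase was nearly all ENO1 (chr1:8861000-8878690), with 567, 580 and 569 FPKM with GIA, against 575, 565 and 571 with DMSO. ENO1 was the most even of the tested glycolytic genes, with a highest library 1.03 times its lowest (fold change 0.0013, SE 0.02; interval 0.970-fold to 1.03-fold; edgeR adjusted p = 0.994). ENO2 (chr12:6913745-6923696), the neuronal form and a hypoxia-responsive gene, had 7.37, 9.86 and 8.42 FPKM with GIA, against 8.92, 7.29 and 8.08 with DMSO. The ratio of its highest to its lowest library was 1.35, with GIA library 2 the highest and DMSO library 2 the lowest (fold change 0.08, SE 0.11; edgeR adjusted p = 0.915). ENO3 (chr17:4948092-4957131), the muscle form, had 1.202, 1.69 and 1.24 FPKM with GIA, against 1.13, 0.970 and 1.36 with DMSO (fold change 0.25, SE 0.18; edgeR adjusted p = 0.875). It lies opposite PFN1, at 349.9 FPKM, and the use of strand in counting is not stated in the labels.

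Pyruvate kinase was PKM (chr15:72199029-72231680), with 320, 305 and 311 FPKM with GIA, against 311, 308 and 312 with DMSO (fold change 0.01, SE 0.03; edgeR adjusted p = 0.973). The table is per gene, so the alternative PKM exons that distinguish the M1 and M2 forms are not resolved. PKLR, the liver and red cell gene, had 0, 5 and 13 estimated counts with GIA, against 0, 4 and 0 with DMSO.

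Lactate dehydrogenase was split almost evenly between its A and B subunits. LDHA (chr11:18394560-18408425), the form known for the conversion of pyruvate to lactate, had 269, 297 and 280 FPKM with GIA, against 280, 267 and 273 with DMSO. GIA library 2 was the highest and DMSO library 2 the lowest (fold change 0.04, SE 0.03; interval 0.9746-fold to 1.09-fold; edgeR adjusted p = 0.878). LDHB (chr12:21635342-21657971), the form known from heart, had 295, 302 and 292 FPKM with GIA, against 298, 308 and 302 with DMSO. For LDHB the highest library was DMSO library 2 and the lowest GIA library 3 (fold change −0.03, SE 0.03; interval 0.939-fold to 1.02-fold; edgeR adjusted p = 0.878). LDHD (chr16:75111860-75116780), a D-lactate dehydrogenase of mitochondria, had 1.31, 2.01 and 1.21 FPKM with GIA, against 1.58, 1.12 and 1.46 with DMSO (fold change 0.12, SE 0.23; edgeR adjusted p = 0.935).

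The LDHB share of LDHA and LDHB together was 52.3%, 50.4% and 51.1% with GIA, against 51.6%, 53.5% and 52.6% with DMSO. GIA libraries 2 and 3 lay below all DMSO libraries and GIA library 1 lay among them. The difference of −1.26 points, GIA minus DMSO, had the smallest p of the 13 shares (exact permutation p = 0.2, adjusted p = 0.827). LDHA and LDHB are near in level per length, where LDHB is ahead in each library. Their promoters are shown because LDHA was highest in GIA library 2 and LDHB in DMSO library 2.
LDHA promoter, chr11:18394313-18394562, plus strand: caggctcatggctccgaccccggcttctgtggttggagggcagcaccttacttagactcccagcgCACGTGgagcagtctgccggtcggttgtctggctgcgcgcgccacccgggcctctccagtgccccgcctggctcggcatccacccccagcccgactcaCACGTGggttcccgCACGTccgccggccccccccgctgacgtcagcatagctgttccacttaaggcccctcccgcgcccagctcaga
LDHB promoter, chr12:21657843-21658092, minus strand: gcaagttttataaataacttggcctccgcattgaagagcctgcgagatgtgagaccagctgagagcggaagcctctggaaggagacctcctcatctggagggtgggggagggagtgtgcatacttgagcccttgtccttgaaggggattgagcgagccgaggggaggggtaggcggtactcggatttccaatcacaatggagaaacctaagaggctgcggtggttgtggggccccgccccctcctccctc
The LDHA window holds 5 motif matches, including CACGTG at a pair of places, and the LDHB window holds 0. The other LDHA window, not shown, holds 1. As for the hexokinases, a relation between matches and library levels was not tested, and PGAM1, PGAM5, TIGAR and PFKFB3 are as given there.

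**Figure D3:**
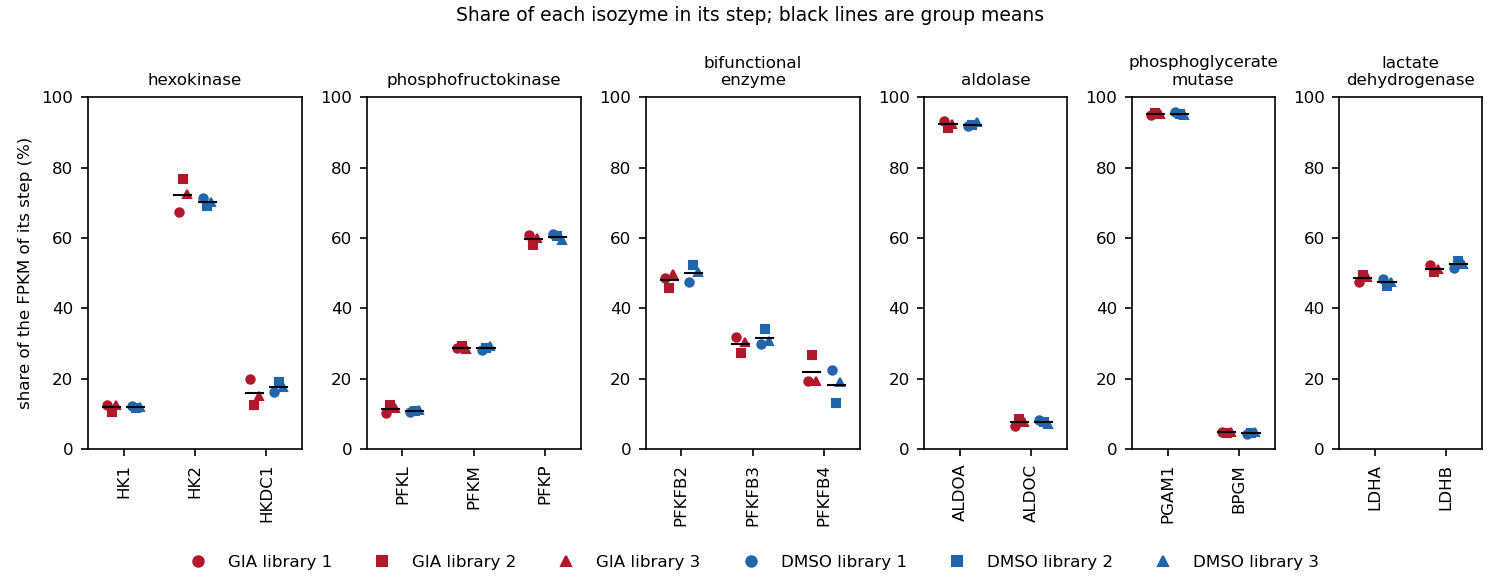
Share of each isozyme in the summed FPKM of its step, in percent, for 6 steps with more than 1 isozyme at a measurable share. Points are libraries (GIA red, left of DMSO in blue) and black lines are group means. The low FBP1 and FBP2, whose shares spread more, are not shown. Among the shares shown, those of HK2 and PFKFB4 spread most between libraries of a group, and the LDHA and LDHB shares lie near each other.

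Many of the 26 genes had their highest or lowest level in the same library. GIA library 2 had the highest FPKM of 14 of the 26 genes (53.8%, against 29.6% of all tested genes), and DMSO library 2 had the lowest of 15 (57.7%, against 17.9%). Both held for 11 genes (42.3%, against 8.22%), namely PFKFB4, PFKM, ALDOA, GAPDH, PGK1, PGAM1, ENO1, ENO2, ENO3, LDHA and LDHD. The sizes were uneven: relative to the mean of its 6 libraries in log2 CPM, GIA library 2 stood at 0.49 for LDHD, 0.46 for PFKFB4, 0.42 for ENO3, 0.29 for HK2, 0.24 for ENO2, 0.23 for ALDOC and 0.19 for PGK1, but at 0.01 for ENO1 and TPI1. In the same library 6 genes were at their lowest, HKDC1, PFKFB2, PFKFB3, PGAM5, PKM and TIGAR (23.1%, against 23.9% of all tested genes). The median deviation of the 26 genes was −0.01, 0.02 and 0.01 in GIA libraries 1 to 3, against 0.01, −0.05 and −0.01 in DMSO libraries 1 to 3.

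**Figure D4:**
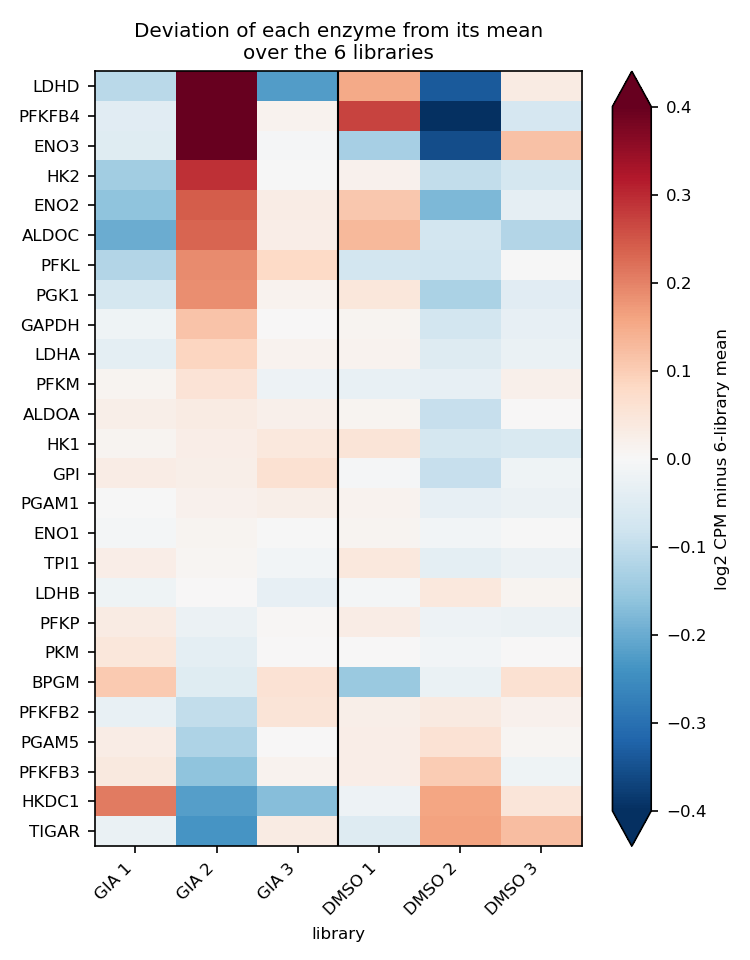
Log2 CPM of each tested gene in each library, relative to the mean of its 6 libraries, with the GIA libraries in the left columns and the DMSO libraries in the right ones; genes are sorted by GIA library 2 and colours are limited to 0.4 either way. The column of GIA library 2 is high for LDHD, PFKFB4, ENO3, HK2, ENO2 and ALDOC and low for HKDC1, TIGAR and PFKFB3.

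A list of 20 other hypoxia-responsive genes holds CA9, BNIP3, NDRG1 and EGLN3 and no glycolytic enzyme. Of these 20 genes, 18 had their highest FPKM in GIA library 2, against 29.6% of all tested genes. Its median deviation was −0.07, 0.27 and 0.01 in GIA libraries 1 to 3, against 0.05, −0.14 and −0.07 in DMSO libraries 1 to 3. CA9, a carbonic anhydrase, had 9.50, 32.8 and 15.3 FPKM with GIA, against 18.1, 4.17 and 9.23 with DMSO. The list was thus highest in GIA library 2 and lowest in DMSO library 2, as were the glycolytic genes named above. The groups overlapped in the median deviation of the list. The genes of the list had a median fold change of 0.11, with 18 of 20 above 0 (against 50.2% of all tested genes), and 0 passed the test. Only VEGFA of the list had every GIA library above every DMSO library (edgeR unadjusted p = 0.0102, adjusted p = 0.875), and the others overlapped. Of all tested genes, 11.2% did not overlap in either direction. The fibroblast marker LUM had 157, 197 and 177 FPKM with GIA, against 176, 160 and 168 with DMSO, so it too was highest in GIA library 2. The 6 fibroblast markers, of which 4 were tested, summed to 175 to 222 FPKM with GIA and 178 to 195 with DMSO, and the 9 epithelial markers, also with 4 tested, to 398 to 466 with GIA and 450.3 to 455 with DMSO. The epithelial sum was lowest in GIA library 2. KRT18 had 219 FPKM there, against 274 and 255 in GIA libraries 1 and 3 and 259, 267 and 259.6 in DMSO libraries 1 to 3. KRT8 was also lowest in GIA library 2, at 134 FPKM, while ELF3 was highest there, at 17.3 FPKM. KRT19 had 27.7 FPKM in GIA library 2 and was lowest in DMSO library 2, at 26.2 FPKM. The expressed epithelial markers thus did not move together. The part of the hypoxia-responsive genes, of the epithelial and fibroblast markers and of GIA library 2 in the fold changes was not tested as a cause.

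**Figure D5:**
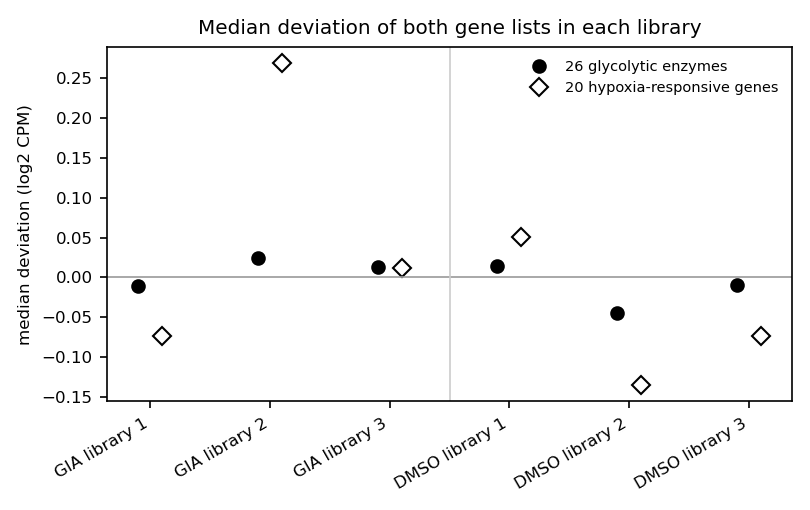
Median deviation in log2 CPM from the mean of the 6 libraries, by library, for the 26 glycolytic genes and the 20 other hypoxia-responsive genes, with the GIA libraries left of the DMSO libraries. Both lists are highest in GIA library 2 and lowest in DMSO library 2, and the hypoxia-responsive list spreads further, at 0.27 and −0.14.

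Fold changes above 0 were seen for 20 of the 26 genes (76.9%, against 50.2% of all tested genes). That count depended on these libraries: it was 15 with a median of 0.01 without GIA library 2, and 17 with a median of 0.02 without DMSO library 2. Without GIA library 2 the fold changes of HK2 (−0.02), ALDOC (−0.07), ENO1 (−0.0044), ENO2 (−0.03) and LDHD (−0.13) lay below 0. PFKFB4 ranged from 0.05 to 0.48 as each library was left out in turn. Among the 14 genes of at least 20 FPKM the median ratio of highest to lowest library was 1.09, against 1.099 for the 2240 tested genes of that level.

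Other genes of glucose metabolism did not pass the test either. Of 48 genes for glucose entry and lactate export, the pentose phosphate pathway, glycogen, pyruvate handling, side branches and shuttles, 47 were tested, 0 were higher and 0 lower by edgeR (adjusted p under 0.05), and 22 had a fold change above 0, with a median of −0.0029. PDHA1, a subunit of the pyruvate dehydrogenase that feeds the citric acid cycle, had the smallest p and lay at 37.3, 38.4 and 37.1 FPKM with GIA, against 40.0, 40.2 and 39.0 with DMSO. All its GIA libraries lay below all DMSO libraries (fold change −0.08, SE 0.03; unadjusted p = 0.0321, edgeR adjusted p = 0.875). SLC2A3, a glucose transporter, had 0.438, 1.09 and 0.545 FPKM with GIA, against 0.471, 0.348 and 0.348 with DMSO. GIA library 2 was its highest (fold change 0.81, SE 0.32, edgeR unadjusted p = 0.0333, adjusted p = 0.875). SLC2A6, a transporter of the same family, had 1.29, 1.08 and 1.24 FPKM with GIA, against 0.834, 1.07 and 0.876 with DMSO. Its GIA libraries lay above its DMSO libraries by a small margin (fold change 0.37, SE 0.16, edgeR unadjusted p = 0.0491, adjusted p = 0.875). GBE1, the glycogen branching enzyme, had 12.8, 13.7 and 12.8 FPKM with GIA, against 12.7, 11.8 and 12.3 with DMSO. Each GIA library lay above each DMSO library (fold change 0.10, SE 0.04, edgeR unadjusted p = 0.0604, adjusted p = 0.875). The same held for PYGL of the glycogen list. Of all tested genes, 11.2% did not overlap in either direction.

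Several of these enzymes have near-identical copies elsewhere in the genome, which can take some of their reads. The table had rows for 45 genes named as copies or antisense partners, 20 of them of GAPDH, 8 of PGAM1 and 5 of LDHA, and 4 reached 0.5 FPKM. TPI1P1 had 7.95 ± 0.832 FPKM with GIA and 7.40 ± 0.636 with DMSO, which is 3.25% of TPI1. GAPDHP1 had 7.24 ± 0.697 FPKM with GIA and 6.88 ± 0.283 with DMSO, or 0.561% of GAPDH, and LDHAP4 had 6.02 ± 0.430 with GIA and 5.97 ± 0.231 with DMSO, or 2.16% of LDHA. The highest copies were thus small beside their parent genes. Another gene model overlapped 23 of the 33 genes, and the level of the low ones among them, such as ENO3 and PFKFB4, is the less certain for it. This holds for PFKFB2 and its share too, since YOD1 on the other strand had 10.2 FPKM, 126% of PFKFB2. SENP1, on the other strand from PFKM, had 7.69 FPKM, 30.6% of PFKM.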

How the data were processed

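The authors deposited 1 table with an estimated count and an FPKM per gene and library. Per the file headers each column names a control or G library, which was matched to the samples by title. Tools named in the submitters' processing notes are StringTie 2.1.6, HISAT2 2.2.1, DESeq2 1.22.2, FastQC 0.10.1 and cutadapt, with build GRCh38 and no roles; no annotation release is named there. Libraries were strand-specific, per the labels' protocols. The deposited estimated counts were already whole; the value 4 was more frequent (6798 times) than 3 (4183 times) or 5 (2499 times), so 1 fragment may be worth about 4 counts. Of 29844 genes found in GENCODE 29, 29813 overlapped on the same chromosome, including all 33 glycolytic genes.

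Genes with a mean of at least 0.5 FPKM were tested with edgeR 4.0.16 (R 4.3.3; quasi-likelihood, TMM, no covariate, two-sided), with Benjamini-Hochberg adjustment over 13721 genes and a threshold of 0.05. SEs were derived from the F statistic, and 95% intervals used the t distribution. Isozyme shares came from FPKM and were tested, between 2% and 98%, by exact permutation (scipy 1.17.1). Log2 CPM used a prior count of 2. Promoter letters are from RefSeq (GRCh38.p14). No library was a copy of another of its group. The chi-square per degree of freedom was 2.742 to 3.632 between DMSO libraries. Between GIA libraries it was 3.567 to 9.556, highest for libraries 1 and 2. Libraries of different groups were not compared in this way. The alternatives were other scalings and filters, DESeq2 1.42.0, limma 3.58.1, a replicate block and each library left out. Genes were given in full if they led a step, held at least 5% of it or regulate phosphofructokinase, with BPGM and PGAM5; ENO2, ENO3 and LDHD were added after their values were seen. The rule also took the 4 other pathway genes of smallest p and the 3 highest copies. The genes and lists were chosen with earlier results of these data known.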

Additional observations from a re-analysis of the deposited data

How the results depend on the processing

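No glycolytic gene was called under any scaling, filter, tool, replicate block or left-out library. The isozyme shares could not pass a threshold of 0.05, since the exact test gives no p under 0.1 with 3 libraries against 3. That no share passed is therefore not a result. Over all genes 0 were called, 3 with the replicate block, and 0 to 5 as each library was left out, with 5 without GIA library 3. Before adjustment 630 genes had p under 0.05, 462 with the block, and 406 to 1407 as each library was left out, highest without GIA library 1. The median over the 26 genes was 0.0415 with the block and 0.0112 to 0.05004 as each library was left out, lowest without GIA library 2. Same-numbered libraries correlated at 0.0519, 0.0334 and 0.0966 in their deviations from group means, none over 0.1, so the numbers were not taken as pairs; each library but DMSO library 2 (0.0349 with GIA library 1) correlated best with its own number, a hint from the data only, and the block changed no call of a glycolytic gene.

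With each library left out in turn, log2 fold changes changed sign for HK2 (−0.022 to 0.201), PFKP (−0.00592 to 0.0247), ALDOC (−0.0651 to 0.151), TPI1 (−0.00168 to 0.0395), ENO1 (−0.0044 to 0.0067), ENO2 (−0.0329 to 0.171), PKM (−0.0152 to 0.0262) and LDHD (−0.13 to 0.26). Share differences did so, in percentage points, for HK1 (−0.365 to 0.565), HK2 (−0.337 to 4.33), PFKM (−0.200 to 0.386), PFKP (−1.37 to 0.0724), ALDOA (−0.494 to 0.535), PGAM1 (−0.309 to 0.0598) and FBP1 (−10.1 to 4.19). From counts in place of FPKM the PFKM difference was −0.0266 points. Counts are not per length, and by counts LDHA was 65.8% of LDHA and LDHB with GIA and 64.6% with DMSO. Counting sign changes and moves of over 1.5 times, 15 of the 26 fold changes moved without GIA library 1, 20 without GIA library 2, 5 without GIA library 3, and, for DMSO, 11 without library 1, 17 without library 2 and 7 without library 3; PGK1 ranged from 0.0129 to 0.144, LDHA from 0.00719 to 0.0716, HKDC1 from −0.26 to −0.0337 and ENO3 from 0.0838 to 0.38. The cause of these changes was not tested. With 3 libraries a group, fold changes near 1.1 in the less abundant isozymes lie inside the intervals given, and fold changes of genes under 0.5 FPKM were not tested.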
